A study of Homo sapiens with 9 samples.

Results

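The muscleblind-like (MBNL) and CUGBP Elav-like (CELF) genes encode RNA-binding proteins that regulate splicing, some of which are bound or altered by expanded CUG or CAG RNA. The set was given by gene symbol and matched to the Ensembl gene IDs of the count files. It held 8 genes (MBNL1, MBNL2, MBNL3, CELF1, CELF2, CELF4, CELF5 and CELF6) of 60683 in all, and 7 of the 8 passed the filter on low counts in all 3 comparisons. The exception was CELF6.

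RNA was sequenced from HEK293T, an established human embryonic kidney line, in 9 libraries. The 3 parental libraries came from cells without a reporter. The 3 libraries of clone 15 and the 3 of clone 37 came from single-cell clones that carried a pair of piggyBac transposon integrands, ATG-(CAG)60-Myc-NLuc, a luciferase behind 60 CAG units, and ATG-(CAG)0-Myc-FLuc, another luciferase with 0 units. The labels describe integrand expression as low in clone 15 and high in clone 37. Each level was 1 clone, both clones carried both reporters, and no clone carried the 0-unit reporter alone, so repeat length, integrand level and clone cannot be told apart. Clone 15 was read at 100 bp and the other groups at 75 bp, so a difference in clone 15 cannot be told apart from one of read length. The labels do not say whether replicates were separate cultures, so p-values measure the spread between these libraries, which may be technical.

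MBNL proteins bind RNA through zinc fingers and switch many exons from fetal to adult forms. In myotonic dystrophy, RNA with expanded CUG repeats traps MBNL proteins in nuclear foci, while CELF1 protein is stabilised and acts on an overlapping set of exons, often in the opposite direction. RNA with expanded CAG repeats also forms foci that hold MBNL1. MBNL1 predominates in muscle, MBNL2 has a large role in brain and MBNL3 is best known from placenta and regenerating muscle, whereas CELF1 and CELF2 are broadly expressed and CELF4, CELF5 and CELF6 are mainly neural.

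Gene counts, the number of read pairs assigned to a gene on the strand of its transcripts, summed to 10334090 to 38093340 per library, and the 3 clone 15 libraries were the deepest. Parental replicate 2 stood apart from its group: its counts differed from those of replicates 1 and 3 with a chi-square per degree of freedom of 11.5 and 11.6, against 1.99 between those 2 libraries, and 19.2% of its read pairs met no annotated exon. Clone 15 replicate 2 differed from replicates 1 and 3 with values of 9.97 and 8.19, against 4.53 between those. All 7 HEK293T markers were at a mean of 1 CPM (counts scaled to library size) or more in each group. Their summed level ran from 1259 to 1551 CPM in parental libraries, from 4030 to 4183 CPM in clone 15 and from 781 to 848 CPM in clone 37. The summed level of 6 neuron markers was 37.4 to 44.2 CPM in parental libraries, 27.5 to 29.4 CPM in clone 15 and 39.8 to 41.3 CPM in clone 37. Of 6 skeletal muscle markers only MYH3 passed a mean of 1 CPM in any group, and their sum ran from 3.31 to 5.59, from 13.7 to 13.9 and from 7.55 to 8.50 CPM in the same order. The sum of 5 blood markers stayed at or under 2.65 CPM in all libraries, with CD3E at 0 counts. NEFM, a neurofilament gene on the HEK293T list, stood at 559 ± 79.2 CPM in parental cells, 2728 ± 82.3 CPM for clone 15 and 137 ± 2.06 CPM for clone 37 (SD, n = 3). NEFL, a further neurofilament gene on that list, had means of 235, 716 and 60.7 CPM in the same order. The HEK293T sum mainly followed NEFM and NEFL. VIM had means of 545, 547 and 543 CPM, PAX2 of 9.01, 9.77 and 8.96 CPM, and KRT18 of 38.2, 66.9 and 47.0 CPM. The part of these marker differences in the results on members was not tested.

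The reporter RNA holds a run of 60 CAG units, so the longest uninterrupted CAG run in the members' own transcripts was looked up. Across their GENCODE 29 transcripts no member exceeded 4 units. The run is shown in capitals for the member with the longest run and for 4 of the 5 members with 3 units, each with 9 bases on either side, read 5′ to 3′.
CELF5, 4 units: gcgcgccggCAGCAGCAGCAGctcctgcag
MBNL1, 3 units: ggggccgcgCAGCAGCAGcggaagcca
CELF1, 3 units: cagcagctcCAGCAGCAGatgcagcaa
CELF4, 3 units: atgatccccCAGCAGCAGagagaaggc
CELF6, 3 units: gccctgcccCAGCAGCAGagagaaggc
A run of at least 4 CAG units occurred in 1.38% of 58437 genes and one of at least 3 units in 7.62%. MBNL2 and MBNL3 had at most 2. The run of CELF4 is followed by the same 9 bases as that of CELF6.

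Among members tested at both comparisons with parental cells, MBNL3 and CELF5 have RefSeq start sites whose preceding 250 bases lie wholly upstream of the GENCODE gene, and the windows shown differ in CG content. Those bases are shown on the gene's strand (build GRCh38.p14) with each CG in capitals, for MBNL3 at chrX:132490036-132490285 (minus strand) and for CELF5 at chr19:3224411-3224660 (plus strand).
MBNL3: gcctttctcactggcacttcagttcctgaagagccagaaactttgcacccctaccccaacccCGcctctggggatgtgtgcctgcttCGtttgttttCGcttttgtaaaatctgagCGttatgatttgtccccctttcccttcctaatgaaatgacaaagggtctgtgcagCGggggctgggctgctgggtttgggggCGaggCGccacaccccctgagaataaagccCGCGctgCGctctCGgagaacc
CELF5: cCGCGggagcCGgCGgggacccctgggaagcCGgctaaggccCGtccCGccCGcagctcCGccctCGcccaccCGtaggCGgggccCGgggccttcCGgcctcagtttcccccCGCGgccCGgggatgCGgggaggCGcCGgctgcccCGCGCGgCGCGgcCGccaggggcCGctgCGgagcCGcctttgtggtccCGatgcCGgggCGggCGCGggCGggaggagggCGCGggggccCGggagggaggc
The MBNL3 window shown holds 11 CG and the CELF5 window 38. RefSeq lists 4 start sites for MBNL3, whose windows hold 1 to 14 CG, and 1 for CELF5. The median over 35116 such windows was 11, and 3.28% held at least 38. Methylation was not measured here.

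In clone 15, MBNL2, MBNL3, CELF4 and CELF5 were lower than in parental cells and MBNL1 was higher. In clone 37, all 3 MBNL genes and CELF4 were lower, and CELF1 and CELF2 were higher by less than 1.2-fold. With GC and length trends removed, the log2 fold changes of CELF1 and CELF2 in clone 37 were 0.26 and 0.33, and MBNL1 was not called. Of these 6 calls in clone 37, relative to the genes that flank each member on its chromosome, that of CELF4 held, MBNL1 was called higher, and MBNL2, MBNL3, CELF1 and CELF2 were not called. Between the clones, MBNL1 and CELF4 were lower and MBNL2, MBNL3 and CELF5 higher in clone 37. Relative to the flanking genes, CELF4 was not called between the clones (-1.003) and MBNL1 was still lower, by a log2 fold change of -0.17. The calls of MBNL2, MBNL3 and CELF5 held, and CELF1 was called higher in clone 37. Both comparisons with parental cells use the same 3 parental libraries.

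Genes were tested with edgeR's quasi-likelihood test and called at a Benjamini-Hochberg adjusted p under 0.05 over all genes tested. In clone 15 against parental, 5 of 7 members were called, 1 higher and 4 lower, against a background of 51.4% of 17703 genes (25.1% up and 26.2% down). In clone 37 against parental, 6 of 7 were called, 2 higher and 4 lower, against 54.0% of 16501 genes (26.7% up and 27.3% down). In clone 37 against clone 15, 5 of 7 were called, 3 higher and 2 lower, against 57.7% of 17712 genes (28.7% up and 29.0% down). Since over 50% of all genes were called, 5 or 6 calls among 7 genes say little by themselves, and each call is given below with its size. Without parental replicate 2, 7 members were called in clone 15 and 6 in clone 37, and without clone 15 replicate 2, 7 were called in clone 15. In clone 37 the 4 lower calls were joined by no higher call without parental replicate 3 or with unstranded counts, and by 1 without parental replicate 1 or clone 37 replicate 1 or 3. Relative to chromosome neighbours 2 members were called there, 1 higher and 1 lower. Over all tested genes the absolute log2 fold change had a median of 0.36, 0.32 and 0.35 in these comparisons.

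**Figure D1:**
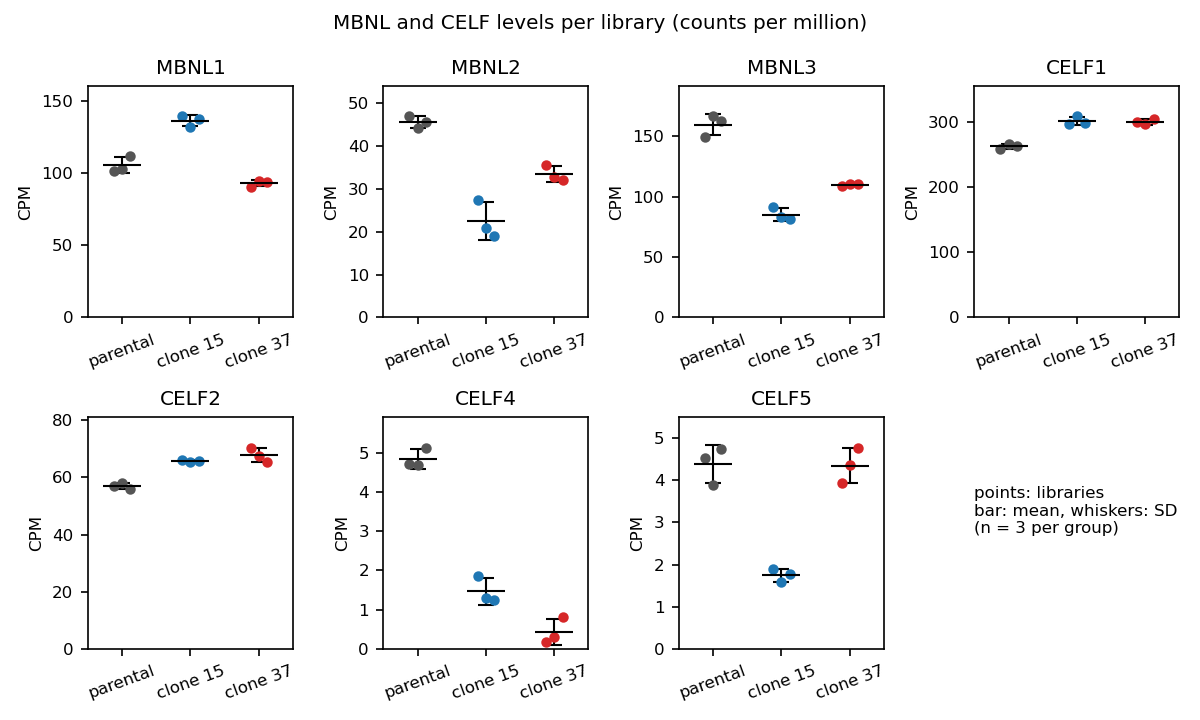
CPM of the 7 tested members (vertical axes, linear from 0, one scale per gene) in parental, clone 15 and clone 37 libraries; points are libraries, bars means and whiskers SD (n = 3 per group). MBNL2, MBNL3 and CELF5 are lowest in clone 15, MBNL1 is highest there, and CELF4 is lowest in clone 37.

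MBNL1 (ENSG00000152601, chromosome 3, 152243828 to 152465780, plus strand) is the founding mammalian muscleblind gene. It stood at 101, 103 and 112 CPM in parental replicates 1, 2 and 3, at 139.6, 132 and 137 CPM in clone 15 and at 90.7, 94.7 and 93.7 CPM in clone 37. The 3 groups did not overlap, with clone 15 highest and clone 37 lowest. In RNA from whole cultures, fewer cells with a transcript and less of it per cell cannot be told apart. Its log2 fold change was 0.34 (SE 0.08, edgeR adjusted p 0.000715) in clone 15 against parental and -0.21 (SE 0.06, edgeR adjusted p 0.00565) in clone 37 against parental. Clone 37 lay below clone 15 by a log2 fold change of -0.55 (SE 0.06, edgeR adjusted p 3.36e-09). Relative to its flanking genes, whose median was -0.38, that difference was -0.17 (edgeR adjusted p 0.0156). The 100 tested genes flanking MBNL1 on its chromosome had a median log2 fold change of -0.45 in clone 37 against parental. Relative to that median MBNL1 was higher in clone 37, by 0.24 (edgeR adjusted p 0.00324), and once GC and length trends were removed its log2 fold change was -0.12 and not called (edgeR adjusted p 0.155). In clone 15 the flanking genes had a median of -0.05 and MBNL1 stayed called relative to them. With GC and length trends removed its log2 fold change in clone 15 was 0.57 (edgeR adjusted p 1.21e-05).

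MBNL1-AS1, annotated on the opposite strand and sharing 11.4% of MBNL1's exon bases, stood at 7.96, 6.69 and 7.81 CPM in parental libraries, at 12.2, 11.1 and 10.3 CPM in clone 15 and at 4.57, 7.06 and 5.67 CPM in clone 37. Clone 15 again held the highest values. The counts used here are stranded, and the log2 fold changes of MBNL1 kept their sign and call with unstranded counts.

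MBNL2 (ENSG00000139793, chromosome 13, 97221434 to 97394120, plus strand) is the member most tied to splicing in brain. It stood at 47.0, 44.2 and 45.7 CPM in parental libraries, at 27.4, 20.9 and 18.9 CPM in clone 15 and at 35.6, 32.9 and 32.1 CPM in clone 37. The groups did not overlap: parental was highest and clone 15 lowest, with clone 15 replicate 1 above the other clone 15 libraries. MBNL2 was 2.06-fold lower in clone 15 than in parental, a log2 fold change of -1.04 (SE 0.11, edgeR adjusted p 7.72e-08). Of all genes tested, 9.61% changed by at least that much in either direction. Clone 37 was lower than parental by a log2 fold change of -0.47 (SE 0.07, edgeR adjusted p 3.32e-05) and higher than clone 15 by 0.57 (SE 0.12, edgeR adjusted p 0.00081). That difference was 0.89 relative to the flanking genes (edgeR adjusted p 1.46e-05), whose median was -0.32, and 0.37 with GC and length trends removed (edgeR adjusted p 0.00266). The genes flanking MBNL2 had a median of -0.48 in clone 37, and relative to them MBNL2 differed by 0.01 (edgeR adjusted p 0.915), no longer called. In clone 15 the flanking median was -0.29 and MBNL2 was still lower relative to it, by a log2 fold change of -0.75 (edgeR adjusted p 1.1e-05).

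MBNL3 (ENSG00000076770, chromosome X, 132369317 to 132489968, minus strand) encodes the MBNL protein best known from placenta and regenerating muscle. It stood at 149.8, 167 and 162 CPM in parental libraries, at 91.4, 82.8 and 81.2 CPM in clone 15 and at 108.8, 110.2 and 110.3 CPM in clone 37. The groups did not overlap, and the order was the same as for MBNL2. The log2 fold change was -0.94 (SE 0.08, edgeR adjusted p 1.07e-09) in clone 15 and -0.57 (SE 0.06, edgeR adjusted p 3.8e-07) in clone 37, both against parental. Clone 37 was higher than clone 15 by 0.37 (SE 0.06, edgeR adjusted p 8.16e-06), by 0.68 relative to the flanking genes (edgeR adjusted p 3.82e-10), whose median was -0.31, and by 0.20 with GC and length trends removed (edgeR adjusted p 0.000841). In clone 37 the flanking genes had a median of -0.43, and relative to them the log2 fold change of MBNL3 was -0.13 (edgeR adjusted p 0.0765), no longer called. In clone 15 the flanking median was -0.05, and relative to it MBNL3 was lower by a log2 fold change of -0.88 (edgeR adjusted p 3.51e-09). With GC and length trends removed the value in clone 15 was -0.62 (edgeR adjusted p 1.66e-05).

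**Figure D2:**
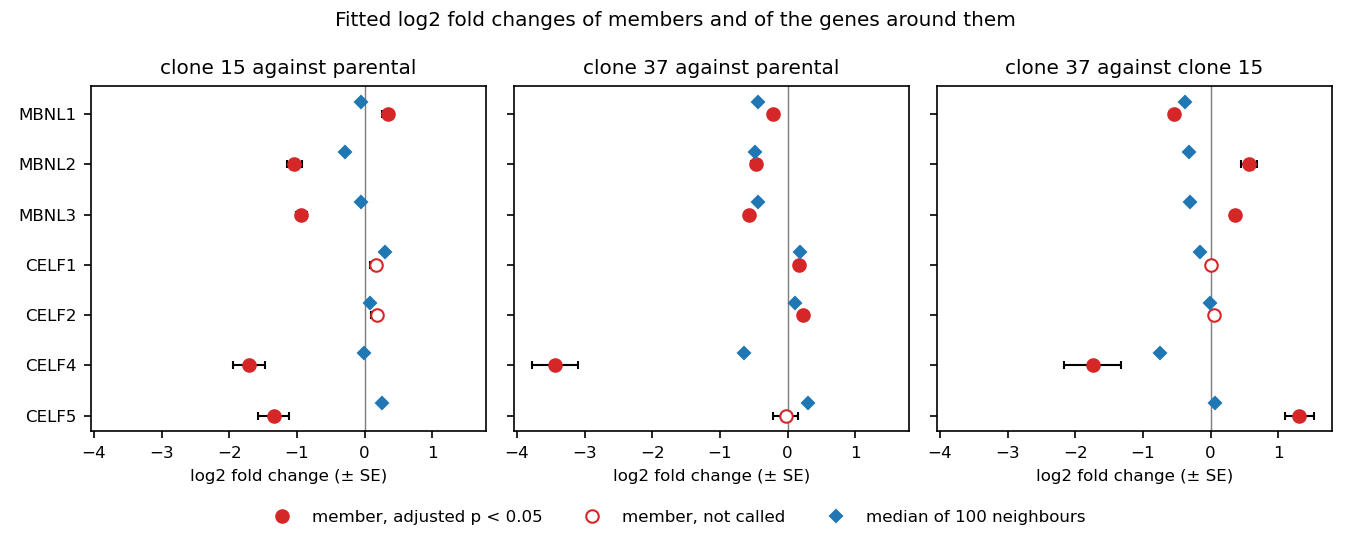
Log2 fold change of each tested member (red; filled where the adjusted p is under 0.05; bars SE) and median of its 100 chromosome neighbours (blue diamonds) in the 3 comparisons, on one horizontal scale. In clone 37 against parental MBNL2 lies at its neighbours' median (-0.47 against -0.48), while in clone 15 MBNL2 and MBNL3 lie well below theirs.

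CELF1 (ENSG00000149187, chromosome 11, 47465933 to 47565569, minus strand) binds GU-rich RNA, regulates splicing and promotes decay of its target mRNAs. It stood at 258, 266 and 263 CPM in parental libraries, at 296, 309 and 299 CPM in clone 15 and at 299, 296 and 304 CPM in clone 37. All 6 clone libraries lay above all parental libraries, and the clones overlapped. The log2 fold change was 0.17 in both comparisons with parental, called in clone 37 (SE 0.06, edgeR adjusted p 0.0188) and not in clone 15 (SE 0.08, edgeR adjusted p 0.0848). Of the tested genes, 72.7% in clone 37 and 75.3% in clone 15 changed by at least as much. The difference between the clones was -0.00 on the log2 scale, with a 95% interval from -0.10 to 0.10 (edgeR adjusted p 0.991). Relative to the flanking genes, whose median was -0.15 there, this difference was 0.15 and was called. The call in clone 37 against parental was lost under 8 of 17 alternatives, among them leaving out parental replicate 1 or 3 or clone 37 replicate 1 or 3. The value turned to -0.02 relative to the flanking genes, whose median was 0.19. In clone 15, 7 of 17 alternatives called CELF1 higher, 1 of them leaving out parental replicate 2, which gave 0.20 (edgeR adjusted p 0.00929). Relative to its flanking genes, whose median was 0.30 there, CELF1 turned to -0.13 in clone 15, not called (edgeR adjusted p 0.181).

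CELF2 (ENSG00000048740, chromosome 10, 10798397 to 11336675, plus strand), a paralogue of CELF1 known from heart, brain and T cells, stood at 57.0, 57.9 and 55.8 CPM in parental libraries, at 66.0, 65.4 and 65.6 CPM in clone 15 and at 70.4, 67.5 and 65.4 CPM in clone 37. As with CELF1, every clone library lay above every parental library and the clones overlapped. The log2 fold change was 0.23 (SE 0.06, edgeR adjusted p 0.00618) in clone 37 and 0.18 (SE 0.08, edgeR adjusted p 0.0754) in clone 15, the latter not called. The difference between the clones was 0.05, with a 95% interval from -0.07 to 0.17 (edgeR adjusted p 0.516). In clone 37 the call was lost without parental replicate 3 (0.17, edgeR adjusted p 0.083), with unstranded counts (0.19, edgeR adjusted p 0.0539) and relative to the flanking genes (0.12, edgeR adjusted p 0.139). In clone 15, 6 of 17 alternatives called CELF2 higher, among them the fit without parental replicate 2 (0.21, edgeR adjusted p 0.0231). Over the 17 alternatives its log2 fold change in clone 15 ran from 0.10 to 0.35.

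CELF4 (ENSG00000101489, chromosome 18, 37243047 to 37566037, minus strand), a neuronal member that binds mRNAs of synaptic proteins, showed the largest change of the 7. The parental libraries held 51, 65 and 67 counts, the deeper clone 15 libraries 71, 32 and 23, and the clone 37 libraries 2, 3 and 10. Scaled to library size these were 4.72, 4.68 and 5.13 CPM in parental, 1.86, 1.30 and 1.23 CPM in clone 15 and 0.183, 0.290 and 0.810 CPM in clone 37. The groups did not overlap, and in clone 37 replicates 1 and 2 held no more than 3 counts each. CELF4 was 10.9-fold lower in clone 37 than in parental, a log2 fold change of -3.44 (SE 0.34, edgeR adjusted p 1.98e-07), and 0.570% of tested genes changed by at least that much. It was 3.28-fold lower in clone 15 (log2 fold change -1.71, SE 0.24, edgeR adjusted p 1.58e-06). Clone 37 was lower than clone 15 by a log2 fold change of -1.74 (SE 0.42, edgeR adjusted p 0.00092). Clone 37 replicate 3 moved these values: without it the log2 fold change was -4.36 against parental and -2.65 against clone 15. The flanking genes had a median of -0.64 in clone 37 against parental, relative to which CELF4 was lower by a log2 fold change of -2.81. They had a median of -0.75 in clone 37 against clone 15, relative to which the value was -1.003 and not called (edgeR adjusted p 0.0576).

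Reads on the strand opposite CELF4's exons followed another order. They came to 1.48, 0.719 and 1.68 CPM in parental libraries, 3.05, 1.83 and 1.82 CPM in clone 15 and 0.183, 0.484 and 0.486 CPM in clone 37. Clone 15 was highest there, although CELF4 itself was highest in parental cells. AC015961.2, a gene on the opposite strand that shares 2.59% of CELF4's exon bases, held 6, 7 and 11 counts for parental libraries, 35, 25 and 29 for the deeper clone 15 libraries, and 0, 1 and 2 for clone 37. Scaled to library size these were 0.555, 0.503 and 0.842 CPM, 0.919, 1.02 and 1.55 CPM, and 0, 0.0968 and 0.162 CPM, in the same order. With unstranded counts, in which reads of either strand can count, the log2 fold change of CELF4 in clone 15 against parental was -0.84 in place of -1.71 and was still called.

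CELF5 (ENSG00000161082, chromosome 19, 3224703 to 3297076, plus strand), also mainly expressed in brain, stood at 4.53, 3.88 and 4.75 CPM in parental libraries, at 1.89, 1.58 and 1.77 CPM in clone 15 and at 3.93, 4.35 and 4.78 CPM in clone 37. Clone 15 lay below both other groups, which overlapped each other. It was 2.54-fold lower in clone 15 than in parental, a log2 fold change of -1.34 (SE 0.23, edgeR adjusted p 2.63e-05). Clone 37 was higher than clone 15 by 1.31 (SE 0.22, edgeR adjusted p 8.04e-06). Against parental, clone 37 differed by -0.03, with a 95% interval from -0.40 to 0.34 (edgeR adjusted p 0.908). The flanking genes had medians of 0.26 in clone 15 and 0.30 in clone 37, and CELF5 stayed called in clone 15 relative to them.

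CELF6 (ENSG00000140488, chromosome 15, 72284727 to 72320129, minus strand), a further brain member, held 0, 0 and 0 counts for parental libraries, 0, 1 and 0 for clone 15, and 1, 0 and 0 for clone 37. Its level cannot be read from these counts. In GENCODE 29, 93.2% of its exon bases lie under other genes annotated on the same strand, mostly AC009690.1, and a count of this kind sets aside read pairs that overlap more than 1 gene. AC009690.1 itself held 2, 1 and 3 counts for parental libraries, 14, 5 and 2 for clone 15, and 2, 1 and 0 for clone 37. For the other 7 members, none of the 75-base words of the longest transcript occurred in another gene.

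To compare levels between genes, CPM was divided by the length of each gene's merged exons in kb. In parental cells the order of mean levels per kb was CELF1 at 25.1 ± 0.389, MBNL3 at 13.1 ± 0.723, MBNL1 at 10.6 ± 0.582, MBNL2 at 9.30 ± 0.282, CELF2 at 5.18 ± 0.0961, CELF4 at 0.741 ± 0.0383 and CELF5 at 0.728 ± 0.0745 (SD, n = 3 each). CELF4 and CELF5 overlapped and the other neighbours in the order did not. In clone 15 MBNL1 was second at 13.7 ± 0.375 and MBNL2, at 4.56 ± 0.905, lay behind CELF2 (SD, n = 3). CELF5 and CELF4 overlapped in clone 15. In clone 37 the order was CELF1, MBNL1, MBNL3, MBNL2, CELF2, CELF5 and CELF4, with no overlap between neighbours. MBNL1 and MBNL3 were close there, at 9.32 ± 0.212 and 8.999 ± 0.0662 per kb (SD, n = 3). The order depends on the length used: per kb of the longest transcript MBNL1, at 16.4 ± 0.900, was above MBNL3, at 14.1 ± 0.781, in parental cells too (SD, n = 3), CELF2 was above MBNL3 in clone 15 and above MBNL2 in clone 37, and CELF4 and CELF5 did not overlap in parental cells.

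The summed MBNL level was 32.0, 33.0 and 33.9 CPM per kb in parental libraries, 27.1, 24.3 and 24.3 in clone 15 and 25.3, 25.2 and 24.97 in clone 37. Both clones lay below all parental libraries and overlapped each other. Per kb of the longest transcript the sums were 39.0, 40.2 and 41.6 in parental libraries, 35.6, 32.3 and 32.5 in clone 15 and 31.3, 31.5 and 31.2 in clone 37, so the clones no longer overlapped, with clone 37 lower. The summed CELF level was 31.4, 32.1 and 31.9 CPM per kb in parental libraries, 34.9, 35.9 and 35.03 in clone 15 and 35.7, 35.3 and 36.0 in clone 37. Both clones lay above all parental libraries. MBNL genes thus made up 50.9% ± 0.536 of the combined sum in parental cells, 41.6% ± 1.77 for clone 15 and 41.4% ± 0.376 for clone 37 (SD, n = 3).

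The share of each gene in the MBNL sum per kb of exons differed between the clones. MBNL1 was 32.1% ± 0.994 of the MBNL sum in parental cells, 54.3% ± 2.53 for clone 15 and 37.0% ± 0.953 for clone 37 (SD, n = 3). MBNL2 made up 28.2% ± 1.45, 18.01% ± 2.42 and 27.2% ± 1.36, and MBNL3 39.7% ± 1.56, 27.7% ± 0.272 and 35.8% ± 0.435, in the same order. CELF1 carried most of the CELF sum in every group, with 79.1% ± 0.295, 81.6% ± 0.531 and 80.4% ± 0.421. RNA level per gene does not separate isoforms and does not measure protein or splicing.

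**Figure D3:**
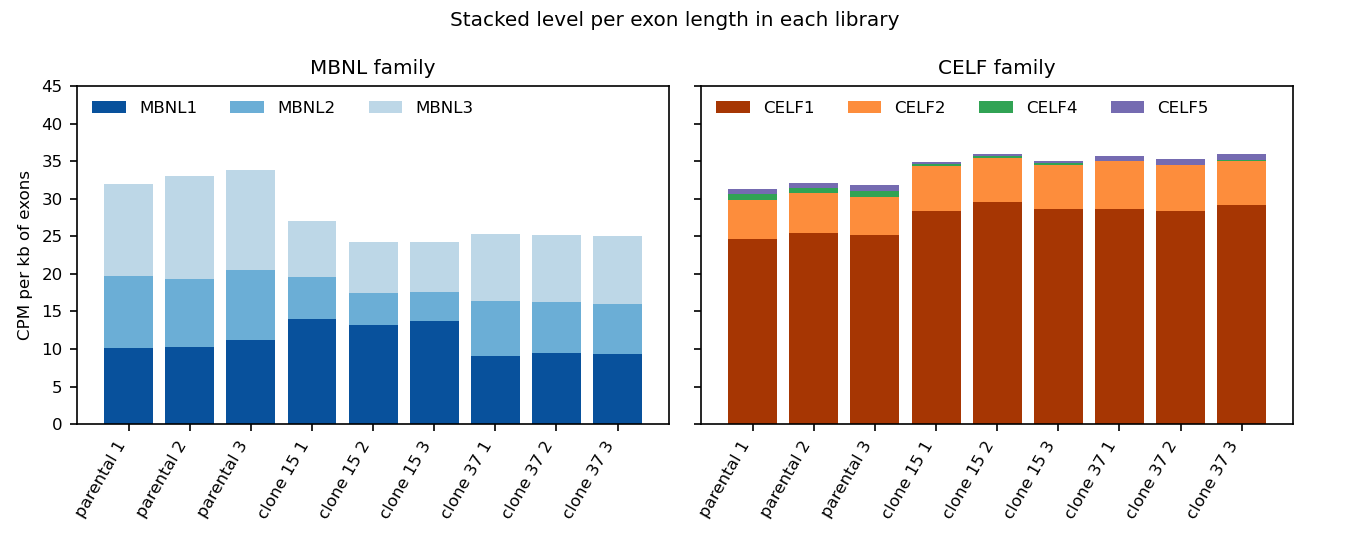
Stacked CPM per kb of exons (vertical axis, linear from 0) of the MBNL genes (left) and CELF genes (right) in each of the 9 libraries. The MBNL stack is 32.0 to 33.9 in parental libraries and 24.3 to 27.1 in clone 15, where MBNL1 is the largest layer; the CELF stack is almost all CELF1 and CELF2.

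For each member the protein-coding genes with the most similar pattern were taken by Pearson r of log2(CPM + 1) over the 9 libraries, among about 11314 genes with a mean of at least 5 CPM. The libraries form 3 groups, so r mainly measures likeness of 3 group levels and of depth. MBNL1 was closest to ARHGEF39 and ABCA1 (r = 0.990 for both), MBNL2 to STON1 (r = 0.989) and MARCHF7 (r = 0.984), and MBNL3 to ATL2 (r = 0.998) and HNRNPA3 (r = 0.993). CELF1 was closest to MRPL4 (r = 0.992) and REXO4 (r = 0.989), and CELF2 to FXR2 (r = 0.984). CELF4 was closest to CGNL1 (r = 0.992) and VAV3 (r = 0.989), and CELF5 to CCDC93 (r = 0.991) and LRRIQ3 (r = 0.990). CELF4, CELF5 and CELF6 were under that mean and so were not among the genes searched.

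The remaining genes of the pathway were read from lists. Of 12 genes for proteins that bind or process CUG or CAG repeat RNA, 3 rose, 5 fell and 4 were not called in clone 15, with a median log2 fold change of -0.10, against 0.02 for all tested genes, of which 51.4% were called. Without parental replicate 1 or 3, with no low-count filter, with unstranded counts and with the replicate block only 1 of the 12 was called higher in clone 15. MID1, a ubiquitin ligase known to bind expanded CAG RNA and promote its translation, was at 263, 261 and 271 CPM in parental libraries and at 70.9, 69.2 and 68.8 CPM in clone 15. It fell by 1.96 on the log2 scale there (SE 0.08, edgeR adjusted p 1.96e-16), and the groups lay far apart. In clone 37 MID1 was at 310.0, 306 and 320 CPM and was called higher than parental, by 0.21 (SE 0.06, edgeR adjusted p 0.00433). EIF2AK2, the RNA-activated kinase PKR, was at 162, 174 and 164 CPM in parental libraries and at 96.7, 91.9 and 86.2 CPM in clone 15, and fell by 0.89 (SE 0.08, edgeR adjusted p 1.66e-09). Its log2 fold change in clone 37 was 0.02 and not called. In clone 37, 4 of the 12 rose, none fell and 8 were not called, with a median of 0.06 against 0.02 for all tested genes, of which 54.0% were called. The count was 7 without parental replicate 2 (6 higher, 1 lower), 2 without parental replicate 3, 1 without clone 37 replicate 3 and 0 with unstranded counts. Relative to chromosome neighbours it was 6, with 4 higher and 2 lower. HNRNPH1, which binds CUG repeat RNA, was higher in clone 37 by 0.26 (SE 0.08, edgeR adjusted p 0.00836) and AGO2, the slicer of RNA interference, by 0.22 (SE 0.06, edgeR adjusted p 0.00534). In clone 15 AGO2 was lower than parental by a log2 fold change of -0.49 (SE 0.08, edgeR adjusted p 1.45e-05), and the value for HNRNPH1 was -0.03 and not called. Between the clones, 6 were higher and 3 lower in clone 37, where 57.7% of all tested genes were called.

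CELF1 protein is phosphorylated by protein kinase C, AKT and the cyclin D3 and CDK4 complex, and GSK3B acts on cyclin D3. Of 7 genes for these kinases and for the deadenylase PARN, 1 rose and 3 fell in clone 37 (median 0.10) and 2 rose and 2 fell in clone 15 (median -0.13), where all tested genes had a median of 0.02 in both and 54.0% and 51.4% of them were called. Between the clones, 2 were higher and 4 lower in clone 37, against 57.7% of all tested genes called. Without parental replicate 2, 6 of the 7 were called in clone 37 against parental, 3 higher and 3 lower. Without clone 37 replicate 3, only 2 were called, both lower, and the same count came from DESeq2, the fit of all 9 libraries, no low-count filter, the removal of GC and length trends and the replicate block. GSK3B was at 129.9, 148 and 142 CPM in parental libraries and at 81.1, 83.2 and 81.4 CPM in clone 37. It was lower there by a log2 fold change of -0.80 (SE 0.06, edgeR adjusted p 9.61e-09), with no overlap. AKT1 was lower in clone 37 by a log2 fold change of -0.69 (SE 0.06, edgeR adjusted p 2.22e-08). In clone 15, PRKCB fell by 1.11 on the log2 scale (SE 0.14, edgeR adjusted p 5.18e-07) from 12.7 ± 0.836 to 6.01 ± 0.190 CPM (SD, n = 3), and CCND3 rose by 0.48 (SE 0.10, edgeR adjusted p 0.000187). In the other clone against parental, the log2 fold change of CCND3 was 0.21 and called higher (edgeR adjusted p 0.0254), while GSK3B (-0.13), AKT1 (0.04) and PRKCB (0.20) were not called.

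Of 22 genes whose exons are mis-spliced in myotonic dystrophy, 16 were tested in clone 37, where 1 rose, 11 fell and 4 were not called, with a median log2 fold change of -0.35 against 0.02 over all tested genes, of which 26.7% rose and 27.3% fell. In clone 15, 17 were tested, 3 rose, 5 fell and 9 were not called, with a median of -0.14 against 0.02 over all tested genes, of which 25.1% rose and 26.2% fell. Without parental replicate 2, 5 were higher and 6 lower in clone 15, and relative to chromosome neighbours 1 was higher and 7 were lower. Between the clones, 4 were higher and 8 lower in clone 37, and 57.7% of all tested genes were called. These are levels of whole genes, and exon use was not measured. DTNA, which encodes dystrobrevin alpha, was at 103, 94.4 and 91.4 CPM in parental libraries and at 37.0, 43.1 and 36.6 CPM in clone 37. It was lower there by a log2 fold change of -1.33 (SE 0.07, edgeR adjusted p 1.22e-10). MTMR1, a myotubularin-related phosphatase gene, fell by 0.60 in clone 37 (SE 0.06, edgeR adjusted p 1.04e-07). In clone 15, CAPZB, which encodes an actin capping subunit, rose by 0.71 (SE 0.08, edgeR adjusted p 7.89e-08) and DMD, the dystrophin gene, fell by 0.55 (SE 0.09, edgeR adjusted p 2.15e-05). In the other clone against parental, the log2 fold changes were -0.31 for DTNA, 0.25 for CAPZB and -0.35 for DMD, all called, and -0.11 for MTMR1, not called.

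Of 25 other tissue-type splicing regulators, 18 were tested in each comparison. In clone 37, 6 rose and 10 fell (median -0.23), in clone 15, 4 rose and 10 fell (median -0.37), and between the clones 8 were higher and 6 lower in clone 37. Of all tested genes, the share called was 54.0% for clone 37 and 51.4% for clone 15 against parental, each with a median of 0.02, and 57.7% for one clone against the other. The 4 called higher in clone 15 became 1 without parental replicate 1, without parental replicate 3, with no low-count filter, with unstranded counts and relative to chromosome neighbours, and 2 without parental replicate 2 or clone 15 replicate 3. RBFOX3, the neuronal NeuN gene, was at 4.44, 3.45 and 3.37 CPM in parental libraries and at 8.40, 10.1 and 6.80 CPM in clone 37, and rose by 1.14 (SE 0.19, edgeR adjusted p 5.5e-05). In clone 15 it was at 0.971, 1.95 and 2.04 CPM, lower than parental by a log2 fold change of -1.26 (SE 0.28, edgeR adjusted p 0.0005). NOVA1, a neuronal splicing regulator, fell by 0.89 in clone 37 (SE 0.10, edgeR adjusted p 1.33e-06). In clone 15, TIA1, a regulator of U-rich splice sites and a stress granule protein, fell by 1.05 (SE 0.08, edgeR adjusted p 9.42e-11) and KHDRBS3, a STAR-family splicing regulator, fell by 0.95 (SE 0.10, edgeR adjusted p 8.84e-09). In clone 37 KHDRBS3 was higher than parental by 0.44 (SE 0.07, edgeR adjusted p 2.97e-05) and TIA1 was lower by a log2 fold change of -0.61 (SE 0.06, edgeR adjusted p 2.45e-07). The value for NOVA1 in clone 15 was 0.17 and not called.

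The genes that carry CTG or CCTG expansions in disease were measured as whole genes. Of 4 tested genes, 2 were called in each comparison with parental, against 54.0% of all tested genes in clone 37 and 51.4% in clone 15. In clone 37 against parental, JPH3, the junctophilin gene of Huntington disease-like disorder, rose by 0.41 (SE 0.09, edgeR adjusted p 0.00126) and DMPK, the gene of myotonic dystrophy type 1, fell by 0.47 (SE 0.12, edgeR adjusted p 0.00428). DMPK was at 37.6, 26.3 and 34.8 CPM in parental libraries, at 28.0, 36.5 and 28.8 CPM in clone 15 and at 23.5, 27.3 and 21.5 CPM in clone 37, so parental replicate 2 overlapped the clone 37 range. In clone 15, JPH3 fell by 0.78 (SE 0.13, edgeR adjusted p 2.3e-05) and TCF4, whose intronic expansion is linked to Fuchs corneal dystrophy, rose by 0.25 (SE 0.08, edgeR adjusted p 0.00868). Without parental replicate 1, without parental replicate 3 and with unstranded counts only the lower of these 2 calls was made, so that 1 of the 4 tested genes was called, whereas without parental replicate 2 there were 2 higher calls and 1 lower. CNBP, the gene of myotonic dystrophy type 2, was not called against parental in clone 15 (0.19, SE 0.09, edgeR adjusted p 0.0922) or in clone 37 (-0.14, SE 0.07, edgeR adjusted p 0.127). All 4 differed between the clones, where 57.7% of all tested genes were called, with JPH3 higher in clone 37 by 1.19 (SE 0.11, edgeR adjusted p 5.39e-10) and DMPK, CNBP and TCF4 lower.

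**Figure D4:**
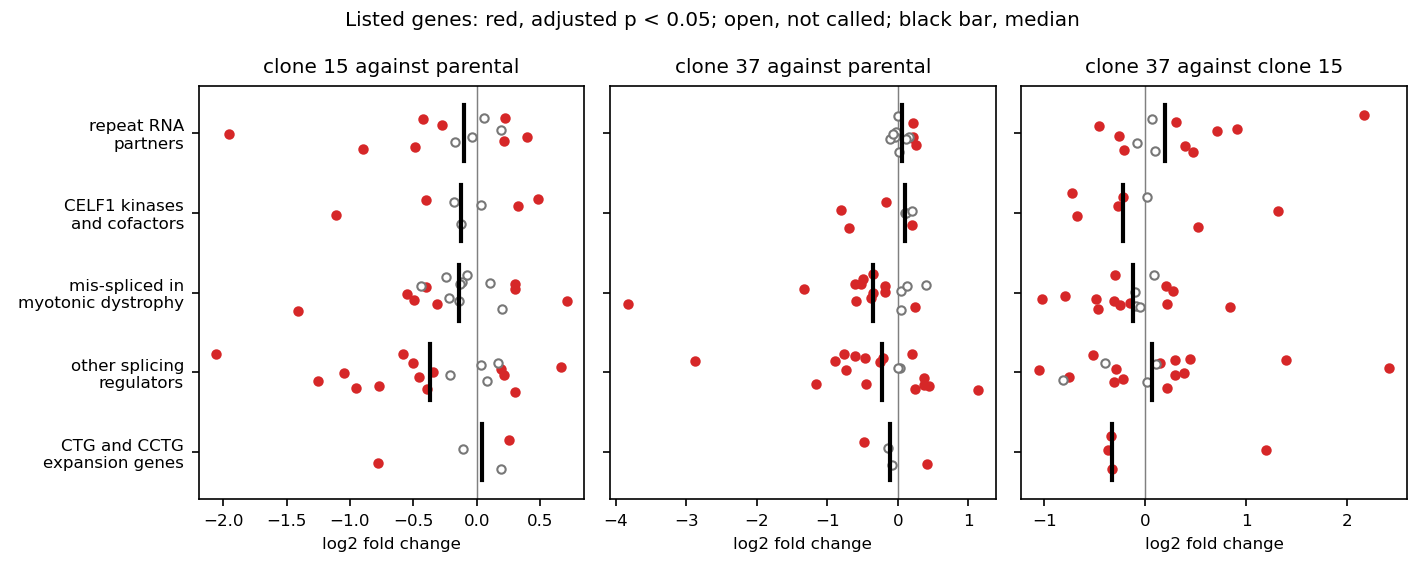
Log2 fold changes (horizontal axes, a separate scale per comparison) of the listed genes, one point per tested gene; red points are called at an adjusted p under 0.05, open points are not, and black bars are list medians. In clone 37 against parental 11 of 16 tested genes of the mis-spliced list are red and left of 0, while 8 of 12 repeat RNA partners are open.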

How the data were processed

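Total RNA was depleted of ribosomal RNA and sequenced as paired ends from a directional library, per the labels' protocols. The submitters' processing notes name STAR 2.7.10a, FastQC 0.11.9 and the build hg38. Annotation release, trimming and filters were not given in the sources used here. The authors deposited raw counts per gene in STAR's layout, and the column of the transcript strand (92.6% to 94.0% of stranded counts) was used. The 4 summary entries stayed out of library sizes and tests: 19.2% to 34.6% of read pairs met no exon, 4.59% to 14.0% multimapped, 3.76% to 4.40% overlapped several genes and 1.24% to 5.16% did not map. In clone 15 libraries 33.7% to 34.6% met no exon and 4.59% to 5.98% multimapped. In the other libraries these were 19.2% to 29.9% and 10.4% to 14.0%, and their part in the results was not tested. Gene counts in STAR's layout hold only uniquely mapped read pairs that overlap 1 gene.

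Of 60683 gene IDs, 60370 had a symbol and 58496 were in GENCODE 29, which supplied positions and exon lengths. All 8 members were found. Start windows are from RefSeq (GRCh38.p14), where all 8 members matched. Each comparison was fitted on its 6 libraries with edgeR 4.0.16 (filterByExpr, TMM, robust glmQLFit, glmQLFTest) in R 4.3.3, adjusted over all tested genes, and the SE is the log2 fold change over the square root of F. The fit was tested on simulated data. Intervals (95%) span 1.96 SE on either side of the estimate and cover the fit's error only. CPM uses the sum of gene counts. Python 3.11.15, pandas 2.3.3 and matplotlib 3.10.9 did the rest.

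Named were all members, all tested expansion genes and, of each other list, the 2 called genes with the largest change and a mean of at least 5 CPM in each comparison with parental. The 2 protein-coding genes with the most similar pattern were also named for each tested member; 1 of them is not reported here. Members, lists and tests were chosen with earlier results of these data known. Alternatives were RLE size factors, DESeq2 1.42.0, no low-count filter, 1 CPM in 3 libraries, unstranded counts, all 9 libraries in 1 fit, a replicate block, thinning, protein-coding genes only, GC and length trends, chromosome neighbours, leaving out each replicate, and, for levels, other lengths and scaling.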

Additional observations from a re-analysis of the deposited data

Results flagged for a closer look

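The effect of the clones against parental differed between clone 15 and clone 37 for 5 of the 7 tested members, by edgeR's test of clone 37 against clone 15, which called 57.7% of 17712 genes. The difference was -0.55 on the log2 scale for MBNL1 (-0.17 relative to its chromosome neighbours, as in the other parentheses), 0.57 for MBNL2 (0.89), 0.37 for MBNL3 (0.68), -1.74 for CELF4 (-1.003, not called) and 1.31 for CELF5 (1.25). Read length differs between the clones, and its part in these differences was not tested.

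Reads on the strand opposite a member's exons, which enter only the fits of unstranded counts, were higher in all 3 clone 15 libraries than in every parental library, and above the limit of 3 counts in them, for 3 members. In clone 15 they averaged 4.96 CPM for MBNL1 against 2.53 in parental, 2.07 CPM for MBNL3 against 1.08, and 2.23 CPM for CELF4 against 1.29. The share of all genes that meet the same rule was not counted, so these members cannot be set apart from other genes. Over all genes the transcript strand held 92.8%, 92.6% and 93.0% of stranded counts in clone 15 libraries. In parental libraries it held 93.2%, 94.0% and 93.2%.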

How the results depend on the processing

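For the 21 log2 fold changes of members, 17 alternatives each gave 357 values: 316 kept direction and side of the threshold, 14 lost the call, 13 gained one and 14 changed sign. Of the 21 results, 10 kept both under every alternative run. Of the 14 sign changes, 4 touched a value that was called before or after, all on subtracting the median of 100 chromosome neighbours: MBNL1 0.24, MBNL2 0.0115 and CELF1 -0.0218 in clone 37 against parental, and CELF1 0.15 in clone 37 against clone 15. In the other 10 neither value was called: CELF1 relative to neighbours in clone 15 against parental (-0.13), CELF5 in clone 37 against parental with GC and length trends removed (0.00179) and without clone 37 replicate 1 (0.0383), CELF2 between the clones with those trends removed (-0.0102), and CELF1 between the clones with RLE (0.000298), DESeq2 (0.000457), unstranded counts (0.0269), those trends removed (0.0462) and without clone 37 replicate 1 or 2 (0.00944 and 0.0218, in a range from -0.0247 over the replicates left out). Relative to neighbours 2 members were called in clone 37 against parental in place of 6. Leaving out a replicate gave 4 to 6 members called in clone 37 against parental, 5 to 7 in clone 15 against parental and 5 in every case between the clones. Over the genes tested under both settings, the median of the shifts of single genes in log2 fold change did not exceed 0.1 in size under any alternative. With no low-count filter, which tests more genes, the median over all genes tested was 0.14 in clone 15 against parental and -0.12 between the clones.

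Same-numbered replicates did not deviate together (correlations from -0.179 to 0.023), so the numbers were not taken as pairs. With the replicate block 5 members were called in each of the 3 comparisons. Dividing by the longest transcript in place of merged exons gave an MBNL share of 48.0% in parental cells, 40.96% in clone 15 and 39.2% in clone 37, and an MBNL1 share of the MBNL sum of 40.6%, 63.2% and 46.0% in parental, clone 15 and clone 37. Depth limits CELF4 in clone 37, where 2 libraries held 3 counts or fewer. The causes of these dependences were not tested.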
